A study of Mus musculus with 10 samples.

Results

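The serpins described here are protease inhibitors found largely inside the cell, and all but Serpinb2, which acts on plasminogen activators, are known for blocking proteases of granules or lysosomes. The 7 genes were picked by name, with earlier results of these tumors known, and are Serpinb9, Serpinb9b, Serpinb6a, Serpinb6b, Serpinb1a, Serpinb2 and Serpina3g. They are 7 of 26378 named genes in the table of estimated counts, and all 7 passed a filter on low counts that 14944 genes passed. RNA was sequenced from 10 tumors of WEHI 164, a fibrosarcoma line of the mouse that was grown subcutaneously in female BALB/c animals. All mice were wild type and all pieces were untreated, since they were cut out at a debulking operation before poly(I:C), a mimic of viral double-stranded RNA that activates Toll-like receptor 3, was placed in a hydrogel on the residual tumor. The 5 responders (tumors 5, 9, 10, 11 and 12) later regressed completely, and the growth of the 5 non-responders (tumors 1, 2, 3, 6 and 7) was not delayed. Each group is therefore named for what happened after sampling, in a model that is a single transplanted cell line with whatever host cells had entered it. Totals ran from 16002949 estimated counts in responder 9 to 31160790 in responder 11, and from 19863863 in non-responder 3 to 28276142 in non-responder 2.

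A serpin offers its reactive centre loop as bait, is cut by the protease, and traps it in a covalent complex that destroys both. Cytotoxic T cells and natural killer cells carry granzymes and perforin, and the clade B serpins of the cytosol are known to protect these cells, and their targets, from granzymes that leak. Serpinb9 is the inhibitor of granzyme B, and tumor cells that make it can resist killing. Myeloid and mast cells use relatives of it against elastase, cathepsin G and other granule proteases.

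Of the mesenchymal markers of a fibrosarcoma, Vim had the highest CPM (counts of a gene scaled to the size of the library, not to its length), at a mean of 4827. Of the epithelial markers, Epcam did not pass the filter, while the keratin Krt8 averaged 182 CPM, Krt18 12.8 CPM in responders and 14.3 CPM in the other group, and Cdh1 (E-cadherin) 6.13 and 5.77 CPM. The pieces were not pure tumor cells. The macrophage marker C1qa averaged 354 CPM, the mast cell tryptase Tpsb2 81.3 CPM and the natural killer receptor Klrk1 9.80 CPM. In such bulk tissue, fewer cells of a type and less RNA per cell cannot be told apart. Responder 5 was the lowest responder in Gzmb (granzyme B), at 19.6 CPM against 60.2 to 109.8 CPM in the other 4.

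Of the members, 5 lie together on chromosome 13 of GRCm38, and annotation places Serpinb9 at chr13:33003250-33017957 and Serpinb9b at chr13:33027416-33041884, both on the plus strand. Serpinb6b at chr13:32965209-32979067 is also on the plus strand, and Serpinb1a at chr13:32842092-32851185 and Serpinb6a at chr13:33917918-34002794 are on the minus strand. Serpinb2 is at chr1:107511423-107535478 and Serpina3g at chr12:104236245-104241939, both on the plus strand. All are protein-coding. The 250 bases before the RefSeq start (GRCm38.p6, plus strand, 5′ to 3′) are shown for the neighbours Serpinb9 and Serpinb9b, paralogs that differ in level, and for Serpina3g, the member with the largest log2 fold change over all 10 tumors, a rank that changed when single tumors were left out. Capitals mark a match to 2 motifs that carry the letters of interferon-responsive elements, TTCNNNGAA (a GAS-type element) and GAAANNGAA (part of an interferon-stimulated response element), searched on both strands. The windows are chr13:33004291-33004540, chr13:33027164-33027413 and chr12:104235897-104236146. That of Serpinb9 lies inside the gene as annotated but overlaps no annotated exon.
Serpinb9: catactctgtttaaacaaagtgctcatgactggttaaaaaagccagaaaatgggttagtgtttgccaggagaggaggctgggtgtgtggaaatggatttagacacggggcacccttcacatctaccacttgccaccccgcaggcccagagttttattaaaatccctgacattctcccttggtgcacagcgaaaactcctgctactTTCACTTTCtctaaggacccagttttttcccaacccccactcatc
Serpinb9b: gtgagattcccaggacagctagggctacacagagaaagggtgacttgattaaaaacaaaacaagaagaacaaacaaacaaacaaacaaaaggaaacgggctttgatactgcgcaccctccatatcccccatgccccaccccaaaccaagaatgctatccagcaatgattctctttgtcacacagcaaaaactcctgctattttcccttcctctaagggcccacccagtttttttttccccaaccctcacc
Serpina3g: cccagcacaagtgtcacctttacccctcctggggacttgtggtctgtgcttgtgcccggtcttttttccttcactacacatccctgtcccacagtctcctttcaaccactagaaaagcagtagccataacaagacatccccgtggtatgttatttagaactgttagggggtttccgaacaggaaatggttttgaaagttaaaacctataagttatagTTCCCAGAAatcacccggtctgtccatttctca
In Serpinb9 the match is TTCACTTTC, which reads GAAANNGAA on the other strand and begins 45 bases before the start. Its neighbour Serpinb9b carried no match to either motif. Serpina3g had TTCCCAGAA, a match to TTCNNNGAA, beginning 33 bases before the start. Of the remaining members, Serpinb6a held TTCCGGGAA and TTCGATTTC, overlapping, before 1 of its 2 listed starts, Serpinb2 held TTCCAAGAA before 1 of its 2, and Serpinb6b held none. The match of Serpinb2 lies inside the gene as annotated, and its other window, which ends just before the annotated gene, held none. Serpinb1a was not searched, as it had no entry among the promoters used here. Among 32851 promoter windows of the same length, 7.02% held TTCNNNGAA, 7.13% held GAAANNGAA and 13.4% held at least 1 of them. A match is a description of letters, not of binding.

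Because levels of different genes can be compared only per length, CPM was divided by the median length of each gene's coding transcripts. Serpinb6a, an inhibitor of cathepsin G and related proteases, was by far the most abundant at 273 ± 11.1 CPM per kilobase (SD, n = 10 tumors). Serpina3g, an inhibitor of lysosomal cathepsins that lymphocytes and macrophages induce on activation, followed at 120.5 ± 40.8 CPM per kilobase. Serpinb1a was at 11.7 ± 2.85, Serpinb9 at 10.004 ± 1.56, Serpinb2 at 7.76 ± 7.003, Serpinb6b at 5.80 ± 1.04 and Serpinb9b at 1.56 ± 0.641 CPM per kilobase. Serpinb1a differed from Serpinb9, and Serpinb2 from its neighbours on both sides, by less than the larger of the SDs between tumors. These ranks of the means are therefore not taken as separated, and the genes were not compared within each tumor. With the longest transcript in place of the median, Serpinb6a fell to 137 and Serpina3g to 55.5 CPM per kilobase and both kept the top ranks, while Serpinb1a at 8.16 moved below Serpinb9 at 9.90. Part of the Serpinb6a level may belong to others: 32.7% of its 31-base sequence words also occur in transcripts of other genes, foremost 1110046J04Rik and Ripk1, which overlap it on the opposite strand, and strandedness is not given in the sources used here. For Serpina3g the share was 28.8%, foremost with its paralog Serpina3f, and for Serpinb9b 11.4%. It was 10.96% for Serpinb1a, 7.13% for Serpinb6b, 4.94% for Serpinb9 and 0 for Serpinb2.

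The first question was how these inhibitors differed between tumors that would respond and tumors that would not. The members were chosen with this contrast known, so the values are a description and nothing is read from their number. The granzyme B inhibitor Serpinb9 was at 33.7, 41.0, 39.3, 41.2 and 37.4 CPM in responders 5, 9, 10, 11 and 12. In non-responders 1, 2, 3, 6 and 7 it was at 31.8, 24.6, 33.3, 31.1 and 30.2 CPM. Every responder was above every non-responder, although responder 5 at 33.7 and non-responder 3 at 33.3 nearly touched. The mean was 38.5 ± 3.11 CPM in the 5 responders and 30.2 ± 3.35 CPM in the 5 non-responders (± SD). The log2 fold change was 0.35 with a standard error (SE) of 0.08, or 1.28-fold. Serpinb9 was the only 1 of the 7 whose groups did not overlap, where 0.408% of all tested genes were higher without overlap in responders and 0.475% lower.

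**Figure D1:**
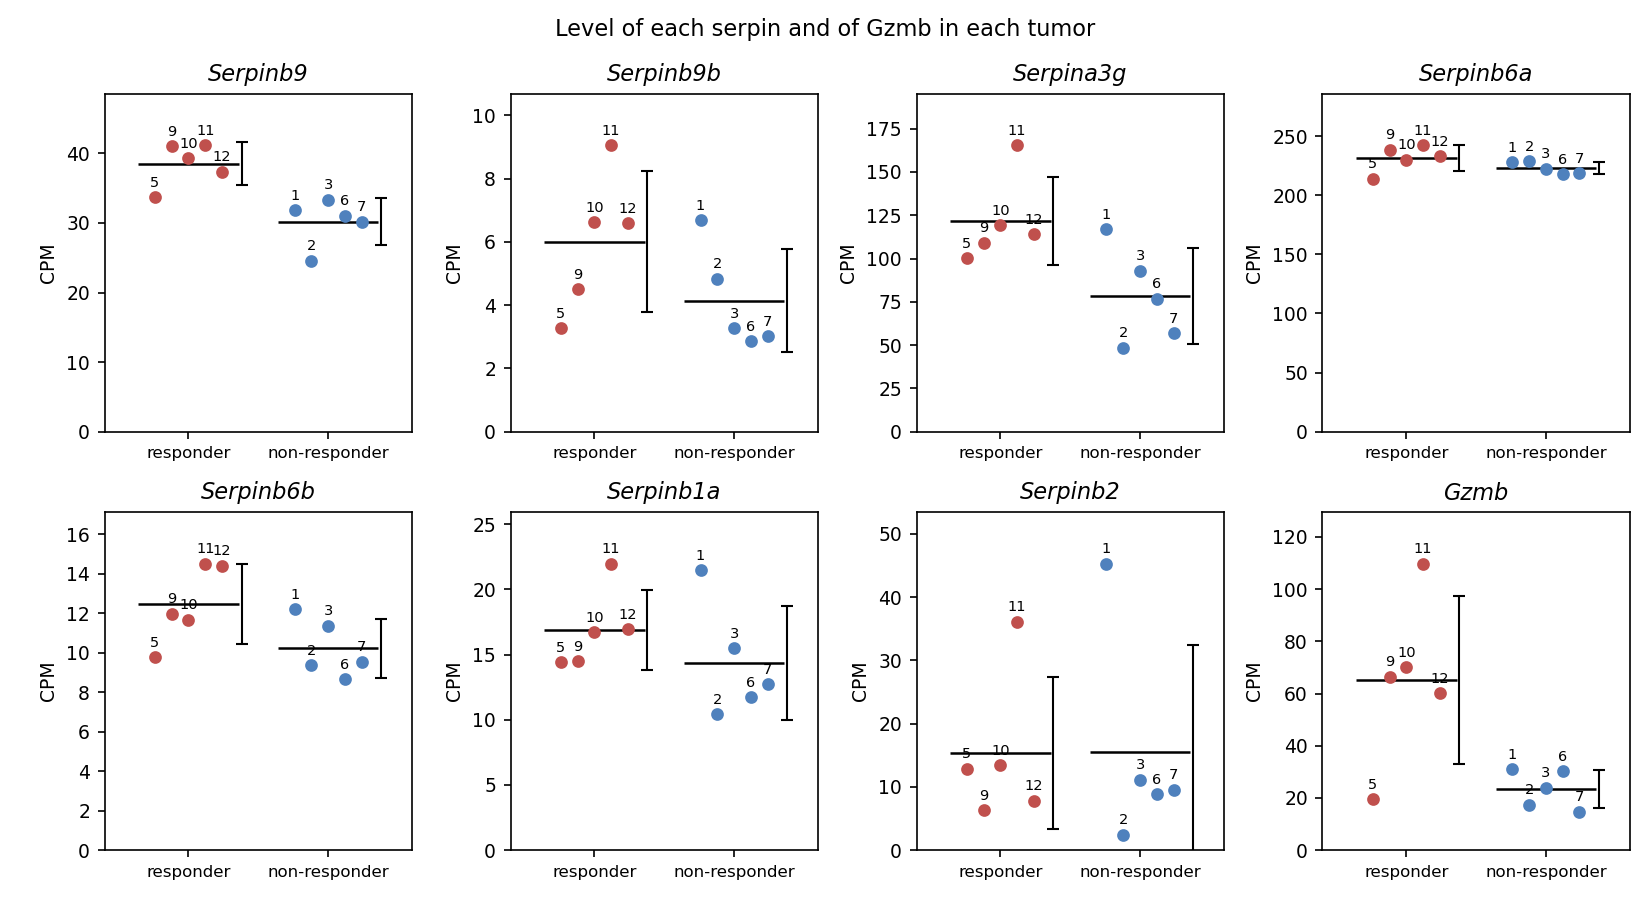
Level in CPM (vertical axis, from 0) of each serpin and of Gzmb in 5 responders and 5 non-responders. Each point is a tumor with its number, the line is the group mean and the bar its SD. The groups do not overlap for Serpinb9, though responder 5 at 33.7 and non-responder 3 at 33.3 CPM nearly touch. Serpinb6a hardly varies, and Serpinb2 is set by responder 11 at 36.1 and non-responder 1 at 45.3 CPM.

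Serpinb9b, a less abundant paralog of Serpinb9, was at 3.27, 4.50, 6.61, 9.06 and 6.58 CPM in responders 5, 9, 10, 11 and 12, and at 6.68, 4.84, 3.26, 2.87 and 3.01 CPM in non-responders 1, 2, 3, 6 and 7. The groups overlapped widely, with non-responder 1 above 4 of the 5 responders. Its log2 fold change was 0.55 (SE 0.28), or 0.34 without responder 11 and 0.78 without non-responder 1, on 63 to 274 estimated counts per tumor.

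Serpina3g, the clade A member that works inside the cell, was at 100.2, 109, 119, 166 and 114 CPM in responders 5, 9, 10, 11 and 12. In the non-responders 1, 2, 3, 6 and 7 it was at 117, 48.4, 93.0, 76.8 and 56.9 CPM. Of the non-responders, 4 were below every responder, and non-responder 1 was among the responders. The means were 122 ± 25.5 and 78.4 ± 27.7 CPM, and the log2 fold change of 0.64 (SE 0.21) was the largest of the 7 over all 10 tumors. That rank did not hold in every fit that left out a tumor. Serpinb9b was at 0.709 against 0.702 for Serpina3g without responder 5 and at 0.61 against 0.50 without non-responder 2, and Serpinb2 was at 0.97 against 0.82 without non-responder 1.

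Serpinb6b, a relative of Serpinb6a reported to act on granzyme A, was at 9.78, 11.97, 11.7, 14.5 and 14.4 CPM in responders 5, 9, 10, 11 and 12 and at 12.2, 9.36, 11.4, 8.65 and 9.55 CPM in non-responders 1, 2, 3, 6 and 7, a log2 fold change of 0.29 (SE 0.13). Serpinb1a, the inhibitor of neutrophil elastase, cathepsin G and proteinase 3, had a log2 fold change of 0.25 (SE 0.18), which was 0.13 without responder 11, 0.14 without non-responder 2 and 0.43 without non-responder 1. It was at 14.4, 14.5, 16.7, 22.0 and 16.9 CPM in responders 5, 9, 10, 11 and 12 and at 21.5, 10.4, 15.5, 11.7 and 12.7 CPM in non-responders 1, 2, 3, 6 and 7. In both genes responder 11 and non-responder 1 were the highest of their group, and the groups overlapped.

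Serpinb6a spanned only 214 to 242 CPM in responders (median 233) and 218 to 229 CPM in the other group (median 222). Its SD was 4.74% of the mean in responders and 2.28% in non-responders, the narrowest of the 7, and its log2 fold change was 0.05 (SE 0.04), or 0.034 without responder 11 and 0.082 without responder 5. Serpinb2, which inhibits urokinase and tissue plasminogen activator and is induced in inflamed macrophages, was the most variable. It was at 12.9, 6.33, 13.4, 36.1 and 7.83 CPM in responders 5, 9, 10, 11 and 12 and at 45.3, 2.42, 11.2, 8.83 and 9.55 CPM in non-responders 1, 2, 3, 6 and 7. Its SD was 78.6% of the mean in responders and 110.1% in non-responders, and 1 tumor in each group set it. The log2 fold change of 0.02 (SE 0.63) became -0.60 without responder 11 and 0.97 without non-responder 1.

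By edgeR's quasi-likelihood test 0 of the 7 members passed an adjusted p of 0.05, as did 0% of all genes, and 3 members had an unadjusted p under 0.05 by edgeR, by DESeq2 and by limma, each time higher in responders. Among all 14944 genes edgeR gave 1250 an unadjusted p under 0.05, 4.75% higher and 3.61% lower in responders. That count was 2095 without responder 5 and 821 without responder 11. DESeq2 and limma called 0 of the members too, beside 0.00669% and 0% of all genes, and gave 4.54% and 4.88% an unadjusted p under 0.05 with higher levels in responders. All 7 log2 fold changes were above 0 with edgeR and limma and 6 with DESeq2, with a median of 0.29, beside 50.3% above 0 and a median of 0.00 over all genes. Responder 11 was the highest of the 10 tumors for 6 members and non-responder 1 for Serpinb2. Non-responder 2 was the lowest for 4 members, non-responder 6 for 2 and responder 5 for Serpinb6a.

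The second question was how the inhibitors followed Gzmb, the protease that Serpinb9 blocks, from tumor to tumor. Gzmb was at 19.6, 66.4, 70.2, 109.8 and 60.2 CPM in responders 5, 9, 10, 11 and 12 and at 30.9, 17.3, 23.9, 30.2 and 14.8 CPM in non-responders 1, 2, 3, 6 and 7. Responders 9 to 12 were above every non-responder, and responder 5 was among the non-responders. The log2 fold change was 1.48 (SE 0.35). Over all 10 tumors on the scale log2(CPM + 1), Pearson's r with Gzmb was 0.858 for Serpinb9, 0.825 for Serpina3g, 0.822 for Serpinb6a, 0.788 for Serpinb6b, 0.753 for Serpinb9b, 0.640 for Serpinb1a and 0.364 for Serpinb2. Spearman's rho ran from 0.345 for Serpinb2 to 0.891 for Serpina3g. These pooled values contain the difference between the groups, which was known when the members were chosen, and are given with no test. Without responders 10 and 11, farthest from the median of Gzmb, r was 0.794 for Serpinb9, 0.711 for Serpina3g and 0.0350 for Serpinb2.

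The relation was therefore taken within the groups, as deviations of each tumor from its group mean, and tested two-sided by an exact permutation test over the 14400 arrangements of the tumors within their groups. The relation to Gzmb was itself a question set when the members were chosen, with earlier results of these tumors known. The p-values here and those of the slopes on Gzmb therefore describe these tumors and are not independent evidence. Serpinb9 had r = 0.682 (exact permutation p = 0.0220) and rho = 0.685 (exact permutation p = 0.0472). Serpina3g had r = 0.661 (exact permutation p = 0.0210) and rho = 0.842 (exact permutation p = 0.00674). Serpinb6a had r = 0.779 (exact permutation p = 0.0474) but rho = 0.467 (exact permutation p = 0.210), and responder 5 lay far below the rest on both axes. Serpinb9b had r = 0.670 (exact permutation p = 0.0491) and rho = 0.564 (exact permutation p = 0.119), and Serpinb6b had r = 0.657 (exact permutation p = 0.0518) and rho = 0.6 (exact permutation p = 0.0928). Serpinb1a had r = 0.551 (exact permutation p = 0.0663) and rho = 0.527 (exact permutation p = 0.137), and Serpinb2 had r = 0.398 (exact permutation p = 0.217) and rho = 0.503 (exact permutation p = 0.168). These 7 relations form one family, and the adjustment over all genes is that of the slope fit given next.

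Much of this rested on 2 tumors. Without responders 5 and 11, which lay farthest from the median of the Gzmb deviations, no member had a p under 0.05 for Pearson's r over the remaining 8 tumors and their 720 arrangements. Serpina3g had r = 0.819 (exact permutation p = 0.103) and rho = 0.857 (exact permutation p = 0.0403). Serpinb9 then had r = 0.545 (exact permutation p = 0.329) and Serpinb6a r = 0.0237 (exact permutation p = 0.960). The other members had r = 0.229 (Serpinb9b, exact permutation p = 0.704), 0.214 (Serpinb6b, exact permutation p = 0.628), 0.528 (Serpinb1a, exact permutation p = 0.335) and 0.612 (Serpinb2, exact permutation p = 0.264). Leaving out 1 tumor moved the members in different directions. Without responder 5 alone, r was 0.848 (exact permutation p = 0.0153) for Serpina3g and 0.724 (exact permutation p = 0.0465) for Serpinb2, but 0.540 (exact permutation p = 0.178) for Serpinb9 and 0.307 (exact permutation p = 0.433) for Serpinb6a. Without responder 11 alone, r was 0.562 (exact permutation p = 0.0212) for Serpina3g, 0.657 (exact permutation p = 0.0472) for Serpinb9 and 0.191 (exact permutation p = 0.582) for Serpinb2.

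**Figure D2:**
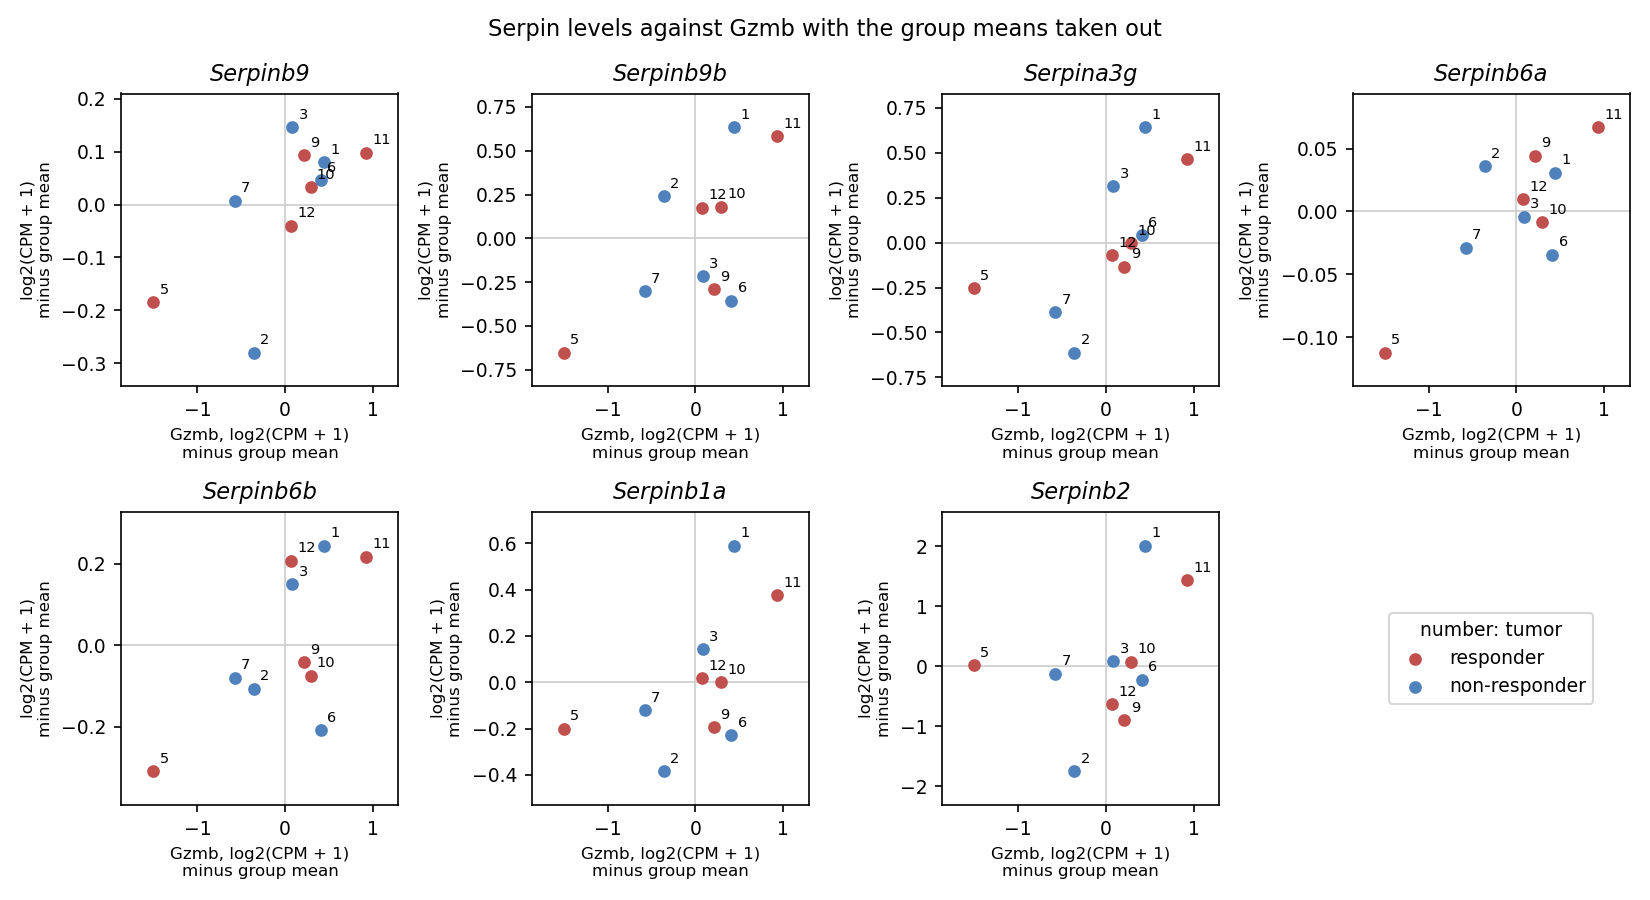
Each serpin (vertical axis, log2(CPM + 1) minus its group mean) against Gzmb on the same scale (horizontal axis), with 1 numbered point per tumor in 5 responders and 5 non-responders. Responder 5 lies at the left and responder 11 at the right of every panel, and without them r is 0.0237 in place of 0.779 for Serpinb6a and 0.819 in place of 0.661 for Serpina3g.

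A slope on Gzmb within groups was fitted to all genes with edgeR's quasi-likelihood test, in log2 units of the member per doubling of Gzmb + 1. The slope was 0.14 (SE 0.05) for Serpinb9, 0.37 (SE 0.12) for Serpina3g and 0.54 (SE 0.17) for Serpinb9b, and edgeR's adjusted p over all genes was 0.243, 0.156 and 0.142. It was 0.21 (SE 0.08) for Serpinb6b, 0.27 (SE 0.12) for Serpinb1a, 0.06 (SE 0.03) for Serpinb6a and 0.75 (SE 0.39) for Serpinb2, with edgeR's adjusted p of 0.246, 0.291, 0.401 and 0.413. Responder 5 alone set several of these sizes. Without it the slope was 0.86 for Serpina3g, 2.34 for Serpinb2 and 0.55 for Serpinb1a, all steeper, and 0.024 for Serpinb6a, which was flatter. Without responder 11 the slope of Serpinb2 was 0.39, and without non-responder 1 it was 0.48. No member passed the threshold with edgeR, where 1.4% of all 14943 genes were called rising and 0.395% falling with Gzmb. At an unadjusted p under 0.05, 5 of the 7 members had a slope above 0 with edgeR and with limma and 6 with DESeq2, beside 8.22% of all genes rising with edgeR, 8.35% with limma and 7.91% with DESeq2. Without responder 5, edgeR's unadjusted p was 0.114 for Serpinb9, 0.103 for Serpinb9b and 0.266 for Serpinb6b, which left that count. Serpinb2 entered it at 0.00139. Without responder 11 it was 0.0721 for Serpinb6b and 0.153 for Serpinb1a, so these left the count. DESeq2 called 1 member, Serpinb9b (adjusted p = 0.0466), where it called 2.84% of the genes it gave an adjusted p rising, and limma called 0, beside 1.47% of all genes. All 7 slopes were above 0 with a median of 0.27, against 49.6% above 0 and a median of -0.00 over all genes. With a macrophage marker score added to the model after the data had been seen, the direction turned for 3 members, to -0.070 for Serpina3g, -0.19 for Serpinb1a and -1.19 for Serpinb2, and the slope was 0.055 for Serpinb9, 0.27 for Serpinb9b, 0.12 for Serpinb6b and 0.059 for Serpinb6a. The number of genes called, 268, dropped to 15 without responder 5 and to 16 without responder 11, so the fit as a whole leaned on these tumors.

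The granzymes and perforin themselves had steeper slopes on Gzmb. Prf1 (perforin) had a slope of 1.10 (SE 0.08, edgeR's adjusted p = 5.96e-05), and 8 of 9 tested genes of the list of granzymes and perforin were called rising, Gzmm being the exception at -0.07 (SE 0.18). The 2 with the largest difference between the groups were Gzma, at a log2 fold change of 1.82 (SE 0.57), and Gzmc, at 1.63 (SE 0.39), and 0 of 10 tested passed the threshold in that contrast. The ratio of Gzmb to Serpinb9 put protease and inhibitor side by side. It was 0.580 in responder 5, 1.62 in responder 9, 1.78 in responder 10, 2.67 in responder 11 and 1.61 in responder 12. It was 0.973, 0.706, 0.717, 0.974 and 0.490 in non-responders 1, 2, 3, 6 and 7. Responders 9 to 12 lay above every non-responder and responder 5 below 4 of the 5. On the log2 scale the means were 0.57 ± 0.81 in responders and -0.42 ± 0.41 in non-responders (± SD of 5 tumors). The difference was 0.99 and ran from 0.78 to 1.33 when tumors were left out in turn. Both genes belong to the contrast already known, so this is a description, and a ratio of CPM is not a ratio of molecules. Divided by transcript length, the ratio ran from 1.17 in non-responder 7 to 6.37 in responder 11, so Gzmb was above Serpinb9 per kilobase in every tumor.

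**Figure D3:**
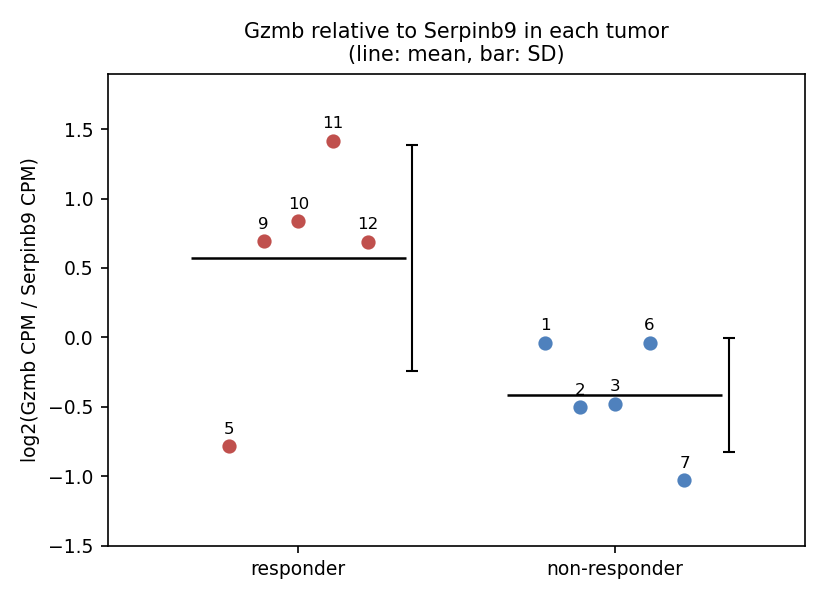
The log2 ratio of Gzmb to Serpinb9 in CPM (vertical axis) in each of 5 responders and 5 non-responders, with tumor numbers, group mean (line) and SD (bar). Responders 9 to 12 lie above every non-responder, and responder 5 at -0.79 lies below 4 of the 5.

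The marker lists were used to see which cell content moved with the serpins, by a slope within groups on the mean log2(CPM + 1) of each list. These fits were chosen after the data had been seen. On the 7 macrophage markers, whose mean lay between 7.32 and 7.76 in responders and between 7.25 and 7.64 in the other group, 3 members were called rising by edgeR with Benjamini-Hochberg adjustment, where 2.23% of all genes were. Serpina3g had a slope of 2.15 (SE 0.38, adjusted p = 0.0101), Serpinb1a 1.75 (SE 0.35, adjusted p = 0.0203) and Serpinb2 5.62 (SE 1.16, adjusted p = 0.0245). The scores span less than 1 unit, so these are steep lines over a short range. DESeq2 called Serpina3g, Serpinb1a and Serpinb9b (adjusted p = 0.0476) and gave Serpinb2 an adjusted p of 0.0633, where 3.37% of its genes were called rising. The members that limma called were those of edgeR, beside 2.61% of all genes. None of the 3 was called without responder 11 (adjusted p = 0.0767, 0.131 and 0.190) or without non-responder 1 (0.109, 0.214 and 0.249), while the slopes stayed at 1.87, 1.30 and 4.003 or more in every fit that left out a tumor. The number of genes called rising, 333, was 63 without non-responder 1, 73 without responder 11 and 109 without responder 5. Serpinb9, at 0.65 (SE 0.23, adjusted p = 0.200), and Serpinb6a, at 0.22 (SE 0.14, adjusted p = 0.575), were not called, and the slope of Serpinb6a was 0.098 without responder 5.

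Of the 4 lists, mast cell markers gave Serpinb1a (edgeR's unadjusted p = 2.42e-06) and Serpina3g (edgeR's unadjusted p = 1.44e-05) their smallest p. The same held for Serpinb2 (edgeR's unadjusted p = 6.84e-05), Serpinb6b (edgeR's unadjusted p = 0.00133) and Serpinb9b (edgeR's unadjusted p = 0.00337). Serpinb9 and Serpinb6a had theirs on the cytotoxic lymphocyte markers (edgeR's unadjusted p = 0.00273 and 0.131). The summed level of Kit, Fcer1a, Cpa3, Mcpt4, Tpsb2 and Cma1 ran from 228 to 385 CPM in responders and, in the other group, from 170 to 305 CPM, highest in responder 11 and non-responder 1 in their groups. On their mean, Serpinb1a had a slope of 1.08 (SE 0.13, edgeR's adjusted p = 0.0361) and Serpina3g of 1.23 (SE 0.18, edgeR's adjusted p = 0.0439), where 0.0402% of all genes were called rising. Serpinb2 at 3.35 (SE 0.58, adjusted p = 0.0731), Serpinb9b at 1.31 (SE 0.36, adjusted p = 0.246) and Serpinb6b at 0.64 (SE 0.16, adjusted p = 0.178) were not called by edgeR, and DESeq2, which called 0.852% of its genes rising, called Serpinb1a, Serpina3g, Serpinb2 (adjusted p = 0.0146) and Serpinb6b (adjusted p = 0.0474). The members that limma called were Serpinb1a (adjusted p = 0.0304) and Serpina3g (adjusted p = 0.0463), beside 0.0602% of all genes. Leaving out single tumors moved the slope of Serpinb1a only between 0.95 and 1.13 and that of Serpina3g between 1.08 and 1.33. The calls did not last: without non-responder 1 edgeR called 0 genes rising and gave both members an adjusted p of 0.879, without responder 11 it called 0 and without responder 10 it called 0. Serpina3g was called in 3 and Serpinb1a in 6 of the 10 fits that left out a tumor.

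On the 9 markers of cytotoxic lymphocytes, only Serpina3g was called by edgeR, with a slope of 0.76 (SE 0.18, adjusted p = 0.0397), beside 2.14% of all genes. Serpinb9 had a slope of 0.30 (SE 0.08, adjusted p = 0.0742) and was called by DESeq2 (adjusted p = 0.0291), as were Serpina3g and Serpinb1a, where DESeq2 called 3.09% of all genes rising. Without responder 5 the slope of Serpina3g was 1.46 (adjusted p = 0.00258), that of Serpinb2 went from 1.73 (adjusted p = 0.198) to 4.54 (adjusted p = 0.00332) and was called, though it was 1.11 without non-responder 1, and that of Serpinb1a went from 0.59 (adjusted p = 0.108) to 1.04 (adjusted p = 0.0646). The call of Serpina3g by edgeR held in 4 of 10 fits without a tumor and reached an adjusted p of 0.205 without responder 11. The number of genes called rising, 319, was 101 without responder 11, 118 without responder 5 and 189 without non-responder 1. On the 16 interferon-induced genes edgeR called 0 members and 0.348% of all genes, and DESeq2 and limma called 0 members too, beside 0.811% and 0.322% of genes. The number of genes edgeR called rising, 52, was 10 without non-responder 3, 26 without non-responder 2 and 63 without responder 5. Serpina3g had the smallest p there, with a slope of 1.13 (SE 0.36, unadjusted p = 0.00915, adjusted p = 0.726), followed by Serpinb9 at 0.36 (SE 0.16, unadjusted p = 0.0384, adjusted p = 0.9999), which was 0.19 without non-responder 2. Serpinb9b at -0.11 (SE 0.65) and Serpinb6a at 0.01 (SE 0.10) lay near 0. The part of these cell types in the difference between the groups was not tested.

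**Figure D4:**
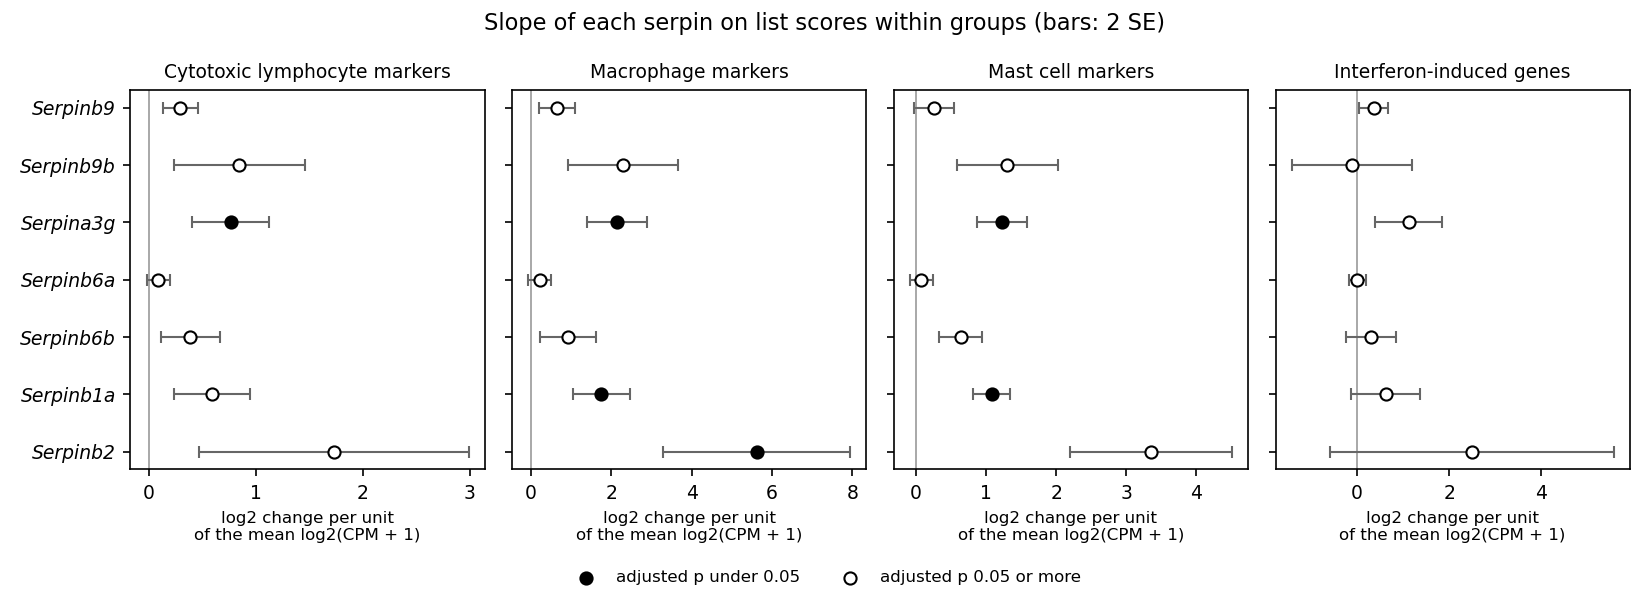
Slope of each serpin (horizontal axis, log2 change per unit of the mean log2(CPM + 1) of a list; each panel has its own scale) on 4 lists within groups, over 10 tumors. Points are edgeR's estimates and bars 2 SE, filled where the adjusted p is under 0.05. Filled points are Serpina3g in 3 panels, Serpinb1a in 2 and Serpinb2 in 1, and none is filled for interferon-induced genes.

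The single genes whose levels ran most like each member over the 10 tumors were found by Pearson's r of log2(CPM + 1), with the difference between the groups left in. For Serpinb6b they were Sytl3 (r = 0.946), Rab27b (r = 0.937) and Mcpt1 (r = 0.934), of which Rab27b acts in granule release and Mcpt1 is a mast cell protease. For Serpinb1a they were Ssh3 (r = 0.954), Zfp729a (r = 0.952) and Pgs1 (r = 0.952). The mast cell genes Ms4a2 (r = 0.948), a chain of the IgE receptor, and Cma1 (r = 0.941), a chymase, stood at ranks 4 and 7 for Serpinb1a and are named after their values were seen. Serpina3g ran with Nod1 (r = 0.970), a sensor of bacterial peptides, Slamf8 (r = 0.964), a receptor of myeloid cells, and Pgs1 (r = 0.963). For Serpinb9 they were Pon2 (r = 0.953), Flt3l (r = 0.943), the growth factor of dendritic cells, and Zbtb5 (r = 0.943). For Serpinb9b they were Kpna2 (r = 0.951), Pcolce2 (r = 0.950) and Rab44 (r = 0.950). For Serpinb6a they were Rnf181 (r = 0.978), Il1a (r = 0.972), the cytokine interleukin-1 alpha, and Lama3 (r = 0.961), and for Serpinb2 Rnase2a (r = 0.933), a ribonuclease of eosinophils, Socs5 (r = 0.930) and Omp (r = 0.928). The libraries and scaling factors are shared by all genes, and the highest of 14943 values is high in any case, so no test goes with these. None of the members was among the 8 genes most like another.

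The other proteases and serpins gave the setting. Of 8 proteases of neutrophil and mast cell granules 5 passed the filter, and 0 passed the threshold between the groups or on Gzmb. All 5 had a higher mean in responders, led by Ctsg (cathepsin G) at a log2 fold change of 1.26 (SE 0.33) and Mcpt4 at 0.60 (SE 0.20). Elane (neutrophil elastase), the main target of Serpinb1a, had 0 counts in all tumors, and Prtn3 (proteinase 3) did not pass the filter. These are RNA counts, and whether the proteases were present as protein was not measured. Of 8 lysosomal cathepsins, targets of the Serpina3g type, 0 passed between the groups, where Ctss was at 0.34 (SE 0.17) and Ctsc at 0.32 (SE 0.11). On Gzmb 4 of them (Ctsb, Ctsh, Ctss and Ctsz) were called rising, beside 1.4% of all genes, and 0 falling. The 268 genes called on Gzmb dropped to 15 without responder 5 and to 16 without responder 11. Of 5 genes of plasminogen activation, the pathway that Serpinb2 restrains, 4 passed the filter and 0 passed either test, with Plaur at 0.29 (SE 0.10) and Plat at -0.11 (SE 0.09).

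Few other clade B serpins were measured above the filter. Of 21 other clade B serpins only Serpinb8 and Serpinb1b passed the filter, 7 had 0 counts in every tumor, and neither test called the 2 that passed. Serpinb8, an inhibitor of furin, had a log2 fold change of -0.07 (SE 0.17), and Serpinb1b, with at most 36 counts in a tumor, one of 0.49 (SE 0.53). Of 10 other Serpina3 genes 9 were found and 3 passed the filter, with 0 called by either test. The paralog Serpina3f, which shares sequence with Serpina3g, averaged 8.39 CPM in responders against 4.88 CPM in the non-responders, a log2 fold change of 0.81 (SE 0.26). Of 9 secreted or collagen-folding serpins 7 passed the filter and 0 were called, with Serping1, the inhibitor of complement C1, at 0.51 (SE 0.27) and Serpini1 at 0.47 (SE 0.27). Of the 16 interferon-induced genes 0 passed between the groups and 1, Cd274 (PD-L1), rose with Gzmb. Their largest log2 fold changes were those of Cd274 at 0.79 (SE 0.21) and Gbp4 at 0.65 (SE 0.24).

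Among cell markers, 0 of 9 for cytotoxic lymphocytes passed between the groups, with Nkg7 at a log2 fold change of 1.07 (SE 0.35) and Eomes at 0.99 (SE 0.29). On Gzmb 7 of them were called rising, beside 1.4% of all genes. The calls on Gzmb in this paragraph come from the fit that leaned on responders 5 and 11. Of 7 macrophage markers 0 passed between the groups and 1, Cd68, rose with Gzmb, and the summed level was 1479 ± 183 CPM in responders against 1332 ± 166 CPM in the non-responders. Of 6 mast cell markers 0 passed either test, and their summed level was 289 ± 65.2 and 212 ± 57.3 CPM. Of 5 neutrophil markers past the filter 1, Csf3r, rose with Gzmb, the summed level was 33.9 ± 12.4 and 22.1 ± 6.45 CPM, and Ly6g, which defines mouse neutrophils, did not pass the filter. For dendritic cells, endothelium, skeletal muscle, the fibrosarcoma and the epithelium 0 markers passed either test. Their summed levels were lower in responders, though within some of these lists single markers were higher. For skeletal muscle they were 97.6 ± 42.1 against 134 ± 37.2 CPM, and for endothelium 142 ± 6.39 against 153 ± 12.2 CPM. Dendritic cell markers summed to 51.0 ± 3.90 against 57.1 ± 11.1 CPM. Most of that sum was Itgax, at 42.3 against 48.6 CPM. Zbtb46 and Clec9a were slightly higher in responders, and Flt3 and Xcr1 slightly lower. The sums were 6516 ± 520 against 6570 ± 563 CPM for the fibrosarcoma and 196 ± 23.8 against 208 ± 32.4 CPM for the epithelium. Within the fibrosarcoma sum Vim was higher in responders (4936 against 4718 CPM), and Col1a1, Col1a2 and Pdgfrb were lower. Of the keratinocyte markers only Krt10 passed the filter and Krt1 was at 0 in every tumor. No list had a marker past the threshold between the groups, and the part of these cells in the levels of the serpins was not tested.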

How the data were processed

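Bulk RNA was sequenced from 10 WEHI 164 tumors, 5 responders and 5 non-responders, as the labels give them. The authors pseudo-aligned reads with Kallisto on GRCm38 (mm10), summed transcripts to genes with tximport and deposited each estimated count per gene, not normalized. The annotation release and strandedness are not given in the sources used here, so that overlapping genes and close paralogs may share counts. Of 36009 rows, 9580 without a name, holding 1.2% to 1.49% of counts per tumor, were left out, rows of 44 repeated names were summed and counts were rounded. A gene was kept (14944 were) if its CPM was over 0.366 in 3 or more tumors, a filter that the study states for its time course. edgeR 4.0.16 in R 4.3.3 with TMM normalization and its quasi-likelihood test (p adjusted by Benjamini-Hochberg, threshold 0.05) gave the group contrast and the slopes. CPM values are relative to the TMM-scaled library size. SE is the log2 fold change or slope over the square root of F. The biological coefficient of variation was 10.1%, and counting error adds to it where counts are few.

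The members and lists were chosen with earlier results of these data known. Named genes are the members, Gzmb, the 2 genes with the largest log2 fold change and, for markers, the gene of each list with the highest CPM, and the 3 genes most like each member. Other genes are named where a count is small. In all 45 pairs of tumors the chi-square of the counts per gene, which is 1 for sampling noise alone, was 5.05 or more, so no pair was merged. Each tumor is 1 piece, and p-values measure the spread between tumors. The labels name no batch. DESeq2 1.42.0, limma 3.58.1, other normalizations and filters, Prf1 in place of Gzmb, a macrophage score as covariate and fits without each single tumor were alternatives. The fits were first tested on simulated data. Coordinates and lengths are from GENCODE M21 and promoters from RefSeq, both GRCm38; 6 of the 7 members, all but Serpinb1a, matched a promoter. Protein sequences, which had been planned, were not analysed here. Correlations within groups were tested by permuting tumors within their groups, exactly, which replaced the planned resampling after its results had been seen. Permutation tests and figures used Python 3.11.15 with scipy 1.17.1 and matplotlib 3.10.9.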

Additional observations from a re-analysis of the deposited data

Results flagged for a closer look

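Both results that stood apart concern Serpinb2. In responders, responder 11 was at 36.1 CPM with the nearest other responder at 13.4 CPM. In non-responders, non-responder 1 was at 45.3 CPM with the nearest at 11.2 CPM. In each case the gap to the nearest tumor took up more than 0.71 of the group's range, the critical value of Dixon's test for 5 tumors. Of 18 groups of values examined, 2 stood apart, and chance alone gives 0.9. The same 2 tumors had the highest macrophage marker sums of their groups, 1725 and 1609 CPM. They were also the highest of their groups in the sums of mast cell markers (385 and 305 CPM), cytotoxic lymphocyte markers (65.8 and 41.7 CPM), neutrophil markers (51.7 and 32.2 CPM), dendritic cell markers (57.4 and 72.5 CPM), skeletal muscle markers (162.0 and 162.2 CPM) and granzymes with perforin (866 and 306 CPM). The sums of endothelial and keratinocyte markers were highest in other tumors. The part of these cells was not tested.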

How the results depend on the processing

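All 7 slopes on Gzmb stayed above 0 under 17 of 18 alternatives. The exception, added after seeing the data, was the macrophage score in the model, which gave -0.19 for Serpinb1a, -1.19 for Serpinb2 and -0.070 for Serpina3g and left 1 gene called, Gzmc. The cause was not tested. With Gzmb in a model without the group, 894 genes were called, a count that contains the difference between the groups and from which nothing is read about the members. DESeq2 called 560, against 268. Leaving out each tumor gave 15 to 312 calls. Between the groups DESeq2 called 1 gene, Col6a2, and leaving out each tumor gave 0 to 10 calls, with 10 without responder 5. The log2 fold changes of 6 members kept their sign under all 16 alternatives, and that of Serpinb2 changed sign in 6. On the interferon score, leaving out tumors took the slope of Serpinb9b from -0.58 to 0.41 and that of Serpinb6a from -0.021 to 0.055. No paired analysis was possible because tumor numbers are unique across the groups. Correlations were first tested by permuting the deviations across both groups, and the exact test within groups replaced this after the results had been seen. The p of r had been 0.0351 for Serpinb9, 0.0285 for Serpinb9b, 0.0124 for Serpinb6a, 0.0314 for Serpinb6b and 0.0354 for Serpina3g, and Serpinb6b alone changed its side of 0.05. Serpinb9b and Serpinb2 had as few as 63 and 67 counts in a tumor.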
